A study of Mus musculus with 36 samples.

Results

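The data followed 36 genes of cell proliferation in cultured mouse cortical neurons, out of 26709 genes in the deposited RNA table. They were chosen by their symbols, with no measured value in the rule that lists them, but with earlier results of these data known. They comprised 6 genes of the cyclins and Cdk1, 9 genes of origin licensing and the replicative helicase, and 6 genes of DNA synthesis and nucleotide supply. The others were 6 mitotic kinases and checkpoint genes, and 9 genes of the spindle, the kinetochore and chromosome structure. All 36 were found by their symbol, and all 36 had a mean of 10 normalised counts or more over the samples, so none was lost to the filter on low values.

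Neurons came from the cortex of CD-1 mouse embryos at embryonic day 15 and were used after 7 days in vitro. Neuronal activity was silenced beforehand in every culture, controls included, by 2 h in 100 µM AP-5, which blocks NMDA receptors, and 1 µM tetrodotoxin (TTX), which blocks sodium channels. Cultures were then given 10 ng/ml of BDNF, a neurotrophin that acts through the receptor TrkB, or 55 mM KCl, which depolarizes the membrane, for 1, 6 or 10 h, while control cultures stayed silenced for 3, 8 or 12 h in total. RNA-seq and ATAC-seq, which maps accessible chromatin, each covered 9 groups of 2 samples, 18 samples per assay. The 6 control samples were pooled, so that the 6 comparisons of a stimulus with the controls share them. The cultures hold whatever cells survive plating of dissociated embryonic cortex, and no antimitotic drug is named among the medium components in the study's methods.

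Most neurons in such a culture have left the cell cycle for good, whereas glial and neuronal progenitors can still divide. A dividing cell first loads the MCM helicase on replication origins, which is called licensing, then copies its DNA in S phase under cyclin E and cyclin A, and then builds a spindle and segregates its chromosomes under Cdk1 with cyclin B. Genes of the first steps are classic targets of E2F factors. Genes of the last steps are repressed by the DREAM complex in resting cells through the cell cycle homology region (CHR) of their promoters.

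The cultures expressed the neuronal markers, and the proliferation genes were far from silent. Over the 18 RNA samples Tubb3, a neuronal tubulin, lay between 9795 and 17370 normalised counts and Map2, a dendritic protein, between 19767 and 27548. All 11 radial glia and progenitor markers were detected in every sample, among them Sox2 at 1909 to 2777 and Fabp7 at 5162 to 7821 normalised counts. Defining markers of microglia were low, with Aif1 at 12.8 to 35.1, and of the endothelial markers Cldn5 was at 0 in 10 of the 18 samples, whereas Kdr lay between 212 and 1183. The fibroblast collagen gene Col1a1 lay between 975 and 1965. Recovered depth was 8.51 to 36.7 M reads in RNA samples, and ATAC samples held 1.24 to 6.24 M reads in peaks. In the controls the 36 genes had means between 72.5 normalised counts for Cdc45, a helicase subunit, and 2749 for Mki67, the antigen Ki-67 of dividing cells. Scaled to the length of their exons, the highest were Pcna, the sliding clamp of DNA polymerase, at 435 normalised counts per kb and Rrm2, a subunit of ribonucleotide reductase, at 346 per kb, and the lowest was Cdc45 at 20.7 per kb. Because these are bulk samples, fewer dividing cells and less RNA per dividing cell cannot be told apart.

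The control samples themselves differed, and the proliferation genes did so together. Mki67 lay at 1879 and 3508 in the 1 h controls, at 2472 and 3236 in the 6 h controls and at 3064 and 2334 in the 10 h controls. The median deviation of the 36 genes from their control mean ran from -0.27 to 0.24 on the log2 scale over the 6 control samples. The lowest of these was sample A of the 1 h controls, which was also the deepest library of the series at 36.7 M reads. Between the lowest and the highest control, Mki67 differed by a ratio of 1.87 and Ccne1, a G1 cyclin, by 1.17. No gene of the 36 was called between control times by limma: at an unadjusted p under 0.05 there were 0 in the 6 h against the 1 h controls and 2 in the 10 h against the 1 h controls, and edgeR and DESeq2 on the recovered reads also called 0, with 1 and 2 genes at such a p by edgeR and 0 by DESeq2. Of all 16209 genes tested, 0.00% were called in either comparison of control times. The median log2 fold change over all these genes lay between -0.016 and 0.025 in every comparison described below.

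**Figure D1:**
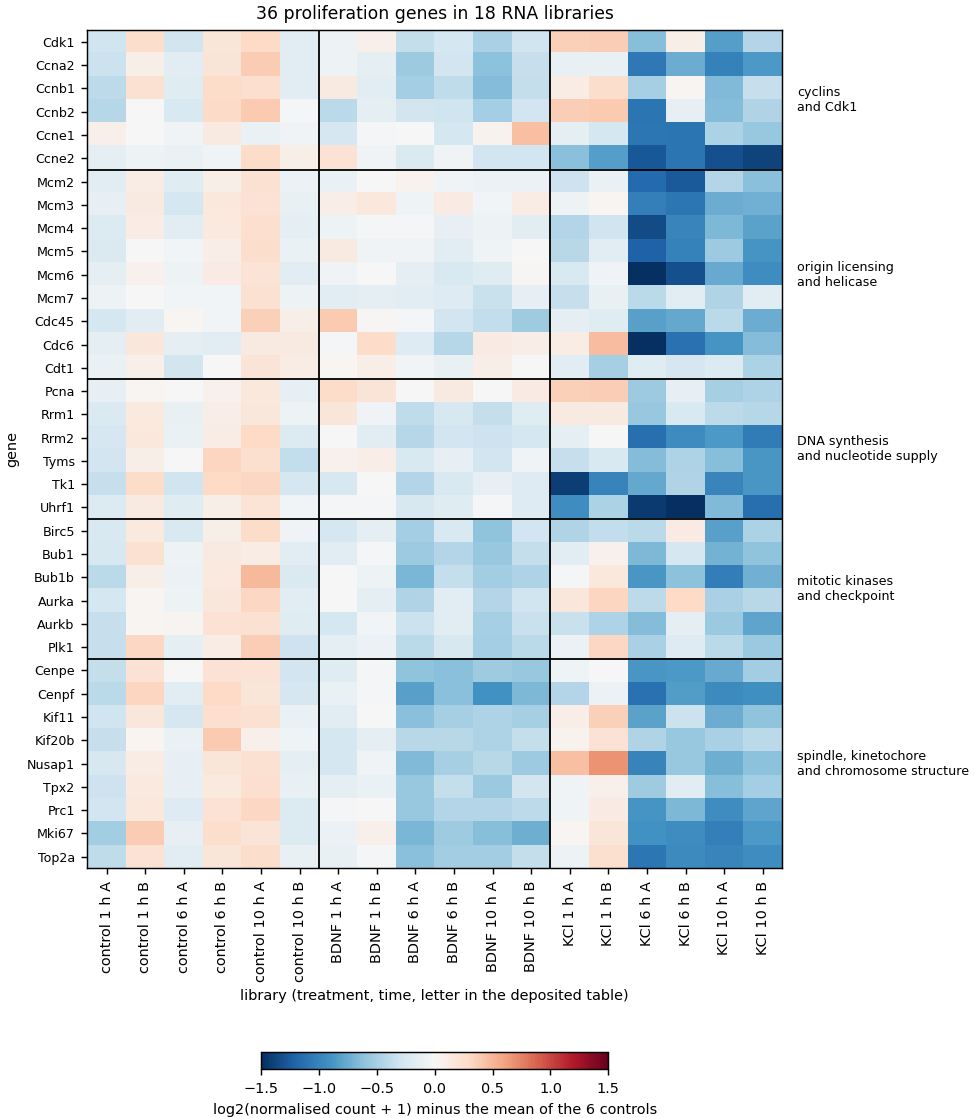
Colour gives log2(normalised count + 1) minus the mean of the 6 controls for 36 genes (rows, grouped by class) in 18 RNA samples (columns, named by treatment, time and the letter of the deposited column). The KCl samples at 6 and 10 h are mostly blue in every class, the BDNF samples at 6 and 10 h most evenly in the spindle class, and the control medians range from -0.27 to 0.24.

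Promoter sequences are shown for 5 of the genes described below, as examples of promoters that differ in the words that E2F and the DREAM complex read. They are RefSeq sequences of the GRCm38.p6 build, 5′ to 3′, of the 250 bases before the start site. Capitals mark the E2F words TTTGGCGC, TTTCGCGC and TTCCCGCC and the CHR words TTTGAA and TTCGAA, searched on both strands. Mcm6, a subunit of the MCM helicase, lies on the minus strand (chr1:128359706-128359955) and holds 3 E2F words, of which one overlaps another, and no CHR word.
Mcm6: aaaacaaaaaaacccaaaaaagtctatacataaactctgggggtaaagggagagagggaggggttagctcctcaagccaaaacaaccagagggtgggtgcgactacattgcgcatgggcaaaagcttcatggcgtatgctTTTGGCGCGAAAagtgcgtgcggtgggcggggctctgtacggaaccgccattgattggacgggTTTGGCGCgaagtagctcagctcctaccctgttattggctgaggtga
Top2a, which untangles DNA ahead of chromosome segregation (minus strand, chr11:99024190-99024439), holds 4 CHR words and no E2F word.
Top2a: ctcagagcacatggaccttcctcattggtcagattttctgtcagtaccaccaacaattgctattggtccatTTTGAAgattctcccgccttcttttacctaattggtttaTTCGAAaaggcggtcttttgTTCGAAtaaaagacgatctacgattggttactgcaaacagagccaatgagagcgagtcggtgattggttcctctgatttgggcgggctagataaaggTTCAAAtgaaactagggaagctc
Mki67 (minus strand, chr7:135716380-135716629) holds 2 CHR words.
Mki67: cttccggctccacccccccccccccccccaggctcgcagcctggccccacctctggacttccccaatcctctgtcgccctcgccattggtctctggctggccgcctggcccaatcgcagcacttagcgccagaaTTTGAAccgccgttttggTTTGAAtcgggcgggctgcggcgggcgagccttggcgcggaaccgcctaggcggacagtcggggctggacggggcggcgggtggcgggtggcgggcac
Kif11, the motor that pushes spindle poles apart (plus strand, chr19:37376132-37376381), holds 1 CHR word, on the reverse strand.
Kif11: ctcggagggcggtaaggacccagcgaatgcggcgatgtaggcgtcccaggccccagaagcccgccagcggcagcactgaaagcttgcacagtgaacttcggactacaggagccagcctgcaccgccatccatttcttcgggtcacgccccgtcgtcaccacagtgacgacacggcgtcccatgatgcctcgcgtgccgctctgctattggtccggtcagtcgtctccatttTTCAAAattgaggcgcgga
Cdk1, the kinase that drives entry into mitosis (minus strand, chr10:69352913-69353162), holds 1 E2F word and 2 CHR words.
Cdk1: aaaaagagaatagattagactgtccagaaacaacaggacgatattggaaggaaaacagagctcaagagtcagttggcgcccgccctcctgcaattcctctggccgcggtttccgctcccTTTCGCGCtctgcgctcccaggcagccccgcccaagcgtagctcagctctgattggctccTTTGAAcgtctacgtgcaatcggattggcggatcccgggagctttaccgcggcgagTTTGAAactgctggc

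RefSeq promoters of 300 bases, 250 before to 50 after the start, were at hand for 31 of the 36 genes (34 promoters). An E2F word stood in 26.5% of these and in 2.96% of all 32851 promoters, and a CHR word in 47.1% against 19.2%. The CCAAT box stood in 76.5% against 37.4%, and the AP-1 word TGANTCA in 0 of 34 against 7.81%. By class the shares differed, with no test made. E2F words were in 5 of the 9 licensing and helicase promoters and in 3 of 7 of DNA synthesis, and in 0 of the 14 promoters of the mitotic kinase and spindle classes. CHR words were in 7 of 9 promoters of the spindle class and 4 of 5 of the mitotic kinases, in 3 of 9 of licensing and helicase, Mcm2 and Cdc45 among them, in 2 of 4 of the cyclins and Cdk1 and in 0 of 7 of DNA synthesis. An E2F word overlapped a CCAAT box in 1 of these promoters and a CHR word in 0. The 9 spindle promoters come from 8 genes, since Prc1 has 2 overlapping promoters that share 1 CHR word, counted in both. A word is a match of letters, not a bound site.

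One hour after either stimulus most of the 36 genes were near their control level. With BDNF at 1 h, 1 gene was called higher and 0 lower, where 21.3% and 19.0% of all 16209 genes tested were called higher and lower. The gene was Pcna, at 1255 and 1188 normalised counts against controls from 952 through a median of 1051 to 1160, a log2 fold change of 0.23 ± 0.09 (SE, adjusted p = 0.051). Both BDNF samples lay above all controls, and the call was lost when either BDNF sample was left out. At an unadjusted p under 0.05, 0 genes were lower by limma, edgeR or DESeq2, and the median over the 36 genes was -0.05.

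KCl for 1 h moved a few genes in both directions. It called 2 genes higher and 10 lower, against 26.5% and 28.2% of all genes, so that the count of lower genes is near its share. Set against the 2 controls of 1 h alone, KCl called 3 genes higher and 5 lower. The median of the 36 against all controls was -0.04. In 7 genes both KCl samples lay below all controls, against 27.2% of all genes. Nusap1, which bundles spindle microtubules, rose from controls of 460, 541 and 636 (lowest, median, highest) to 743 and 864 normalised counts with KCl, a log2 fold change of 0.56 ± 0.13 (adjusted p = 0.00092). Pcna rose as well, to 1332 and 1343, by 0.36 ± 0.09 (adjusted p = 0.0019). Tk1, the thymidine kinase of S phase, fell from controls of 130, 170 and 207 to 61.7 and 82.3, by 1.21 ± 0.18 on the log2 scale (adjusted p = 1.1e-05). It was the lowest Tk1 level of the time course, and both samples lay below every other sample of the series. Nusap1 and Tk1 were singled out after their values were seen. Among the other genes that fell at 1 h of KCl were Ccne2, the second E cyclin, by 0.72, Uhrf1, which keeps DNA methylation in step with replication, by 0.70, the helicase genes Mcm2, Mcm4, Mcm5 and Mcm7 by 0.21 to 0.37, the licensing factor Cdt1 by 0.33, and Birc5 and Aurkb of the chromosomal passenger complex by 0.41 and 0.39.

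At 6 and 10 h of BDNF the genes of mitosis fell and the genes of licensing stayed closer to control. BDNF at 6 h called 16 of the 36 genes lower, against 21.1% of all genes, and at 10 h it called 22 lower, against 19.5%. The medians were -0.31 and -0.39. Against the background of 22.7% and 21.1% of all genes, both samples lay below all controls in 15 and 17 of the 36. None was called higher by limma, against 22.1% and 21.1% of all genes, where edgeR called 1 at 10 h and 0 at 6 h and DESeq2 0 at both, and limma and DESeq2 gave 0 at an unadjusted p under 0.05. All 9 genes of the spindle, kinetochore and chromosome class were called lower at both times, with medians of -0.57 and -0.48 and a range from -0.79 to -0.41. The largest fall was that of Cenpf, a kinetochore protein made in G2, which had controls of 742 to 1226 normalised counts and samples of 560 and 637 at 6 h and 523 and 616 at 10 h, by 0.72 ± 0.18 and 0.79 ± 0.18. Of the 6 mitotic kinase and checkpoint genes, 3 were called lower at 6 h and 6 at 10 h. In contrast, 0 of the 9 licensing and helicase genes were called at 6 h, by limma, edgeR or DESeq2, with 0, 1 and 0 at an unadjusted p under 0.05, and 2 at 10 h, with medians of -0.10 and -0.08. The 2 were Cdc45, by 0.45, and Mcm7, by 0.22.

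The counts for BDNF leaned on single samples. Without sample A of the 6 h BDNF pair the count at 6 h was 7, and without sample A or B of the 10 h pair the count at 10 h was 6 or 12. Set against the 2 controls of the same time alone, BDNF called 13 genes at 6 h and 17 at 10 h.

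KCl at 6 and 10 h lowered nearly the whole set. At 6 h it called 31 of 36 genes lower, against 33.1% of all genes, with a median of -0.76, and at 10 h 36 of 36, against 28.2%, with a median of -0.67. None was higher at either time by limma, edgeR or DESeq2, at an unadjusted p under 0.05 either, against 33.4% and 29.0% of all genes. The samples of KCl at 6 h lay below all 6 controls in 27 of the 36 genes, where 29.4% of all genes did so, and those at 10 h in 34, against 26.4%. The 5 genes not called at 6 h were Cdk1, Ccnb1, Cdt1, Birc5 and Aurka. Sample A of KCl at 6 h was the lower one in most genes, with a median deviation of -0.88 against -0.60 for sample B, and the count at 6 h was 21 without it. Cdk1, for one, was at 211 in sample A and 350 in sample B. By class the medians at 6 h were -1.11 for licensing and helicase, -0.79 for the spindle class, -0.76 for cyclins and Cdk1, -0.58 for DNA synthesis and -0.37 for the mitotic kinases. At 10 h they were closer together, between -0.83 for DNA synthesis and -0.59 for cyclins and Cdk1, and the single genes ran from -1.36 to -0.31.

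**Figure D2:**
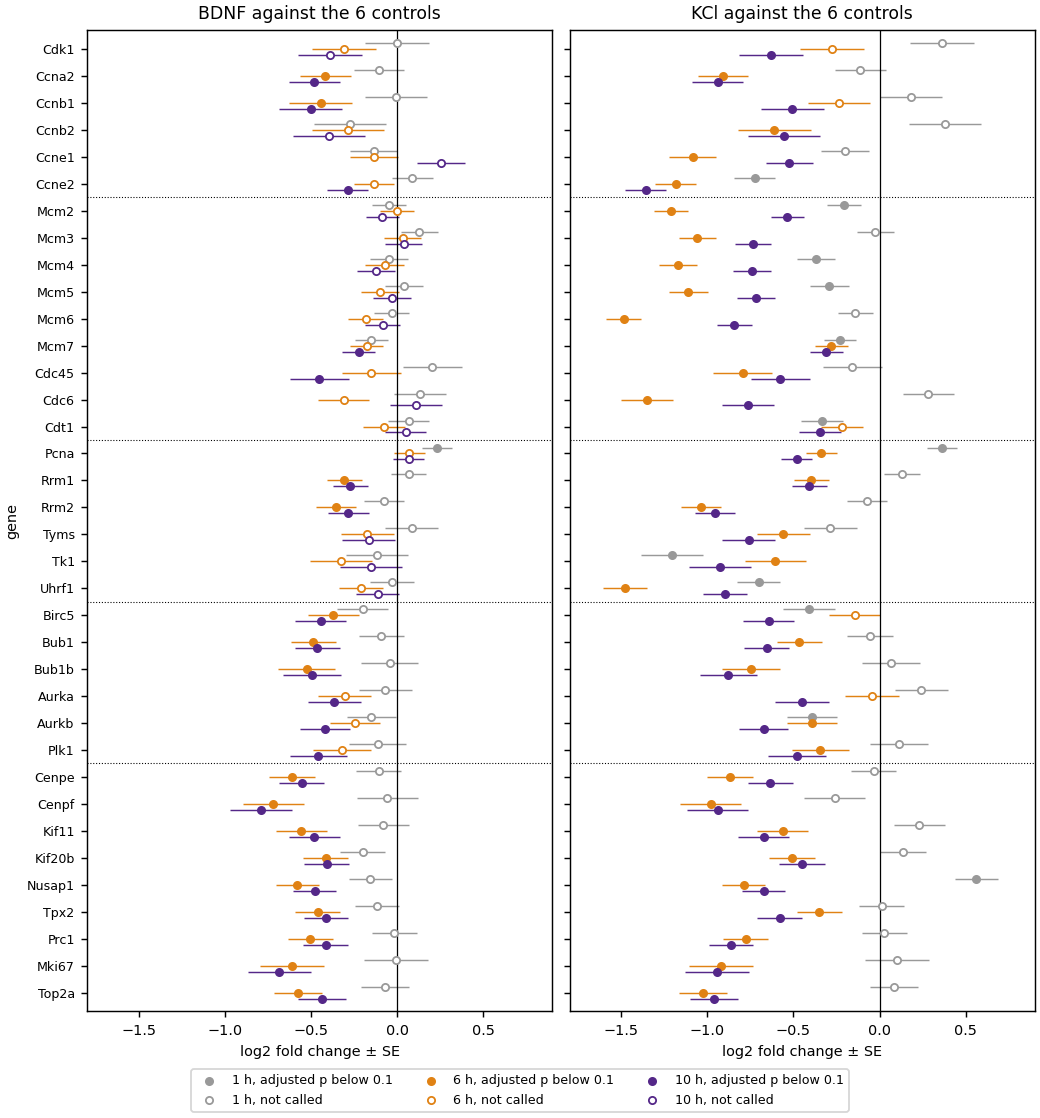
Points give the log2 fold change of each of the 36 genes (rows, classes parted by dotted lines) against the 6 controls with its standard error, for BDNF (left) and KCl (right) at 1, 6 and 10 h. Filled points passed an adjusted p of 0.1: 16 and 22 genes at 6 and 10 h of BDNF and 31 and 36 at 6 and 10 h of KCl.

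Mki67 and Top2a followed the pattern of the spindle class. Mki67 lay between 1879 and 3508 in the controls with a median of 2768, at 1666 and 1855 after 6 h of BDNF, and at 1428 and 1413 after 6 h of KCl. The log2 fold changes were -0.61 ± 0.18 (adjusted p = 0.021) with BDNF and -0.92 ± 0.18 (adjusted p = 0.00077) with KCl. At 10 h they were -0.69 ± 0.18 and -0.94 ± 0.18, where BDNF samples were at 1726 and 1619 and KCl samples at 1321 and 1480. At both times all 4 stimulated samples lay below the lowest control. The BDNF call was lost at 6 h without BDNF sample A and at 10 h without BDNF sample B.
Top2a lay between 1472 and 2297 in the controls with a median of 1978, at 1242 and 1333 after 6 h of BDNF and at 901 and 986 after 6 h of KCl. Its log2 fold changes were -0.57 ± 0.14 (adjusted p = 0.0043) and -1.02 ± 0.14 (adjusted p = 1.0e-05), so that KCl lowered it by 50.8%. Cenpe, a kinetochore motor, gave -0.61 ± 0.13 with BDNF and -0.87 ± 0.13 with KCl at 6 h, from controls of 333, 463 and 499 to 283 and 278 with BDNF, and with KCl to 233 and 236. The 2 stimulated pairs did not overlap the controls.

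Of the 6 mitotic kinase and checkpoint genes KCl called 2 lower at 1 h, 4 at 6 h and 6 at 10 h, with medians of 0.01, -0.37 and -0.65. Of all genes KCl called 28.2%, 33.1% and 28.2% lower at these times, so that the count at 1 h is near its share. Bub1, a kinase of the spindle checkpoint, had controls of 182, 218 and 250 and samples of 147 and 158 with BDNF and 134 and 179 with KCl at 6 h, log2 fold changes of -0.49 ± 0.13 and -0.46 ± 0.13. Bub1b, its partner in the checkpoint, had controls of 210, 281 and 392 and gave -0.53 ± 0.17 with BDNF and -0.75 ± 0.17 with KCl at 6 h. At 10 h of KCl Bub1b was at 136 and 170, by -0.88 ± 0.17, below all controls. Ccnb1, the B cyclin that activates Cdk1, had controls of 327, 443 and 524 and gave -0.45 ± 0.18 (adjusted p = 0.069) with BDNF and -0.24 ± 0.18 (adjusted p = 0.28) with KCl at 6 h, and -0.50 ± 0.18 and -0.51 ± 0.18 at 10 h, both past the threshold. Cdk1 itself had controls of 267, 333 and 404 and passed the threshold only in KCl at 10 h among the 6 comparisons with the controls, at 186 and 242, by -0.63 ± 0.19 (adjusted p = 0.0095).

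The licensing and helicase genes separated the stimuli. Mcm6 had controls of 673, 756 and 871. With KCl at 1 h it was at 647 and 730, at 6 h it dropped to 241 and 303, and 10 h gave 449 and 396, log2 fold changes of -0.14 ± 0.10, -1.48 ± 0.10 (adjusted p = 7.6e-11) and -0.84 ± 0.10 (adjusted p = 6.3e-07). With BDNF it was at 728 and 753, 686 and 649, and 668 and 765, and gave -0.03 ± 0.10, -0.18 ± 0.10 and -0.08 ± 0.10, none past the threshold. The low point of Mcm6 was thus at 6 h of KCl, 64.2% under the controls, with the 10 h samples between it and the control range.
Mcm2, another helicase subunit, had controls of 581, 661 and 774 and fell to 293 and 276 at 6 h of KCl, by -1.21 ± 0.10 (adjusted p = 7.7e-10), and was at 484 and 427 at 10 h, by -0.53 ± 0.10. With BDNF its samples at 6 h, 683 and 634, lay inside the control range, with a log2 fold change of -0.0023 ± 0.10. Cdc6, which loads the helicase, fell by 1.35 at 6 h of KCl, to 41.3 and 56.7 from controls of 112 to 140. Mcm4 fell by 1.17, Mcm5 by 1.11 and Mcm3 by 1.06. Mcm7 was the exception among the helicase subunits, with -0.28 at 6 h and -0.31 at 10 h of KCl, each past the threshold, and its 6 h samples at 592 and 700 against controls of 741 to 918.

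The DNA synthesis genes were low at 6 and 10 h of KCl. At 1 h of KCl 2 of the 6 were called lower, Tk1 and Uhrf1, and Pcna higher, while Rrm1 gave 0.13 ± 0.10 and Rrm2 -0.07 ± 0.12. Of all genes 28.2% were called lower and 26.5% higher there, so that the count of lower genes is near its share. All 6 were called lower at 6 h and at 10 h of KCl, with medians of -0.58 and -0.83, and 2 with BDNF at each of these times, Rrm1 and Rrm2, the subunits of ribonucleotide reductase. The shares of all genes called lower at 6 and 10 h were 33.1% and 28.2% with KCl and 21.1% and 19.5% with BDNF. Uhrf1 had controls of 580, 681 and 774 and fell with KCl, to 352 and 480 after 1 h, to 247 and 233 after 6 h and to 423 and 305 after 10 h, by -0.70 ± 0.13, -1.48 ± 0.13 (adjusted p = 6.8e-09) and -0.90 ± 0.13. All 6 of these samples lay below the controls. Rrm2 had controls of 794, 955 and 1167 and fell by 0.35 ± 0.12 with BDNF and by 1.04 ± 0.12 with KCl at 6 h, to 707 and 780 and to 435 and 492. Pcna, raised at 1 h of KCl, was at 712 and 952 at 6 h and 737 and 754 at 10 h, by -0.34 ± 0.09 (adjusted p = 0.0024) and -0.48 ± 0.09 (adjusted p = 0.00012). The 6 h call was lost without KCl sample A. With BDNF at 6 and 10 h Pcna gave 0.07 ± 0.09 at both times.

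The E cyclins fell with KCl and hardly with BDNF. Ccne2 had controls of 201, 212 and 269. KCl samples at 1 h were at 143 and 125, those at 6 h at 91.4 and 103 and those at 10 h at 88.0 and 83.9, with log2 fold changes of -0.72 ± 0.12, -1.18 ± 0.12 and -1.36 ± 0.12 (adjusted p = 6.3e-09), and each pair lay below the controls. With BDNF at 10 h Ccne2 was at 182 and 181, by -0.29 ± 0.12 (adjusted p = 0.067). Ccne1 had controls of 86.5, 90.6 and 102 and fell to 43.3 and 42.8 at 6 h of KCl, by -1.09 ± 0.14 (adjusted p = 6.9e-07), and to 66.0 and 62.1 at 10 h. Its BDNF samples at 10 h, 96.1 and 127, gave 0.25 ± 0.14 (adjusted p = 0.16). No gene was called in opposite directions by BDNF and KCl at the same time.

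**Figure D3:**
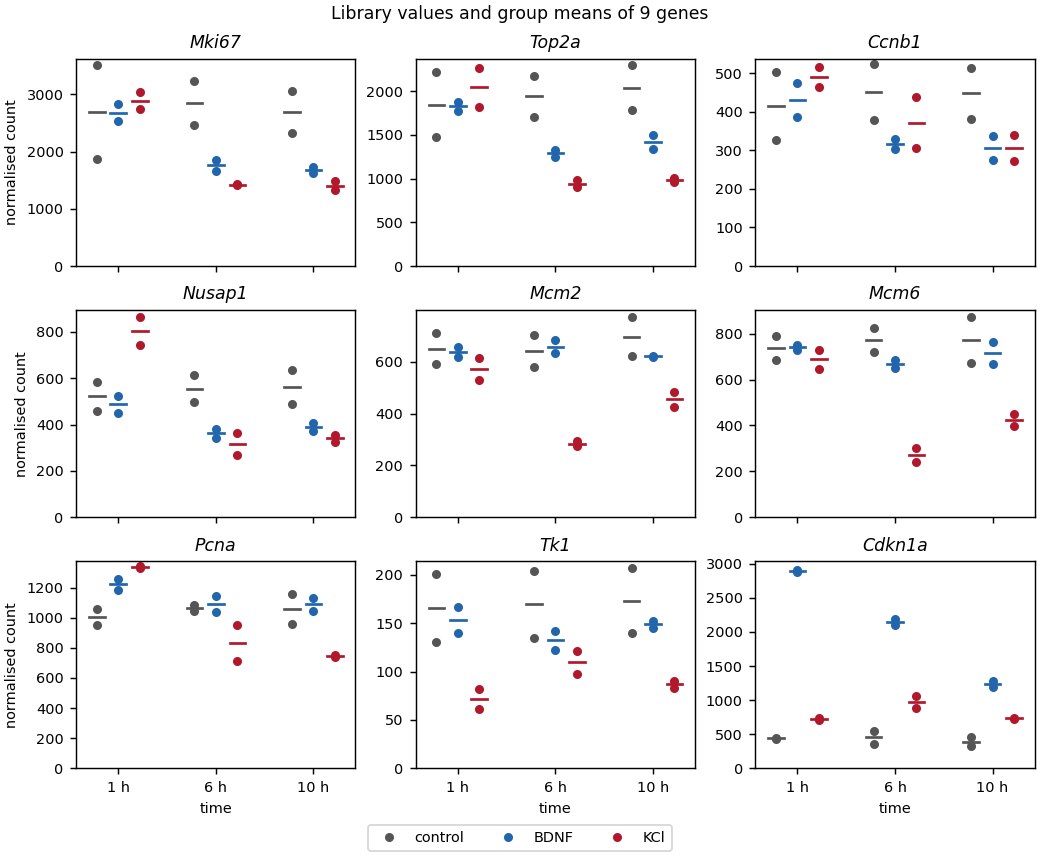
Points are the normalised counts of 9 genes in single RNA samples at 1, 6 and 10 h and bars the means of 2 samples, for controls, BDNF and KCl, on linear axes from 0. Mki67 and Top2a fall with both stimuli at 6 and 10 h, Mcm2 and Mcm6 with KCl, Tk1 is lowest at 1 h of KCl, and Cdkn1a is highest at 1 h of BDNF.

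BDNF and KCl were then compared directly at each time, a contrast that does not involve the controls. At 1 h 6 genes were higher and 2 lower with BDNF than with KCl, against 24.6% and 18.2% of all genes, and 5 genes were called in all without BDNF sample A or either KCl sample. At 6 h 15 were higher, against 29.6%, and at 10 h 17, against 23.1%, and none was lower at either time by limma, edgeR or DESeq2, against 27.8% and 21.8%, and 0 had an unadjusted p under 0.05. The medians were -0.02, 0.27 and 0.32 on the log2 scale. By class the counts were uneven, which was not itself tested. Of the 9 licensing and helicase genes 7 were higher with BDNF at 6 h and 7 at 10 h, with medians of 1.04 and 0.62, and of the 6 DNA synthesis genes 4 and 5. Of the 6 cyclin and Cdk1 genes 3 were at 6 h and 3 at 10 h, with medians of 0.41 and 0.35. Of the 9 spindle and chromosome genes 1 and 2 were, Top2a at both times and Prc1, which bundles midzone microtubules, at 10 h. Of the 6 mitotic kinase and checkpoint genes 0 were, by limma, edgeR or DESeq2 and with 0 at an unadjusted p under 0.05, with medians of 0.00039 and 0.19.

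For single genes the direct contrast ranged from large to none detectable. Mcm6 was higher with BDNF by 1.30 ± 0.12 at 6 h (adjusted p = 2.4e-08) and by 0.76 ± 0.12 at 10 h (adjusted p = 5.3e-05). Ccne2 was higher by 0.81 ± 0.15, 1.05 ± 0.15 and 1.07 ± 0.15 at the 3 times. Tk1 was higher by 1.09 ± 0.22 at 1 h, while Nusap1 was lower by 0.72 ± 0.15 (adjusted p = 0.00094). Kif11 differed by 0.0022 ± 0.18 at 6 h and Mki67 by 0.31 ± 0.23 (adjusted p = 0.28), neither past the threshold.

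**Figure D4:**
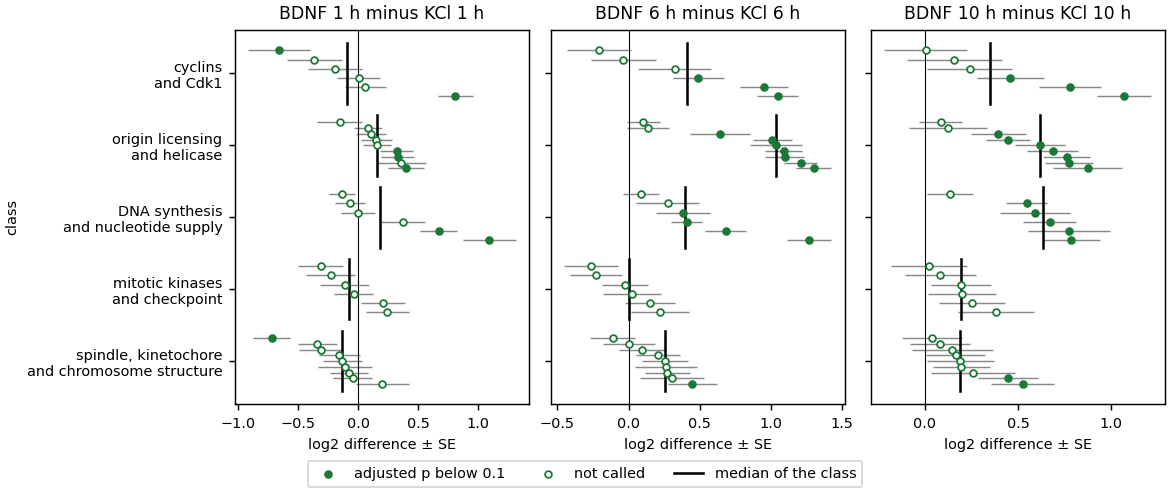
Points give the log2 difference of BDNF minus KCl with its standard error for each gene, by class, at 1, 6 and 10 h, with filled points past an adjusted p of 0.1 and a bar at the class median. At 6 h the licensing and helicase class has its median at 1.04 and the mitotic kinase class at 0.00039.

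Change with time was tested within each stimulus, with controls not entering the contrast. With KCl 28 genes were lower and 1 higher at 6 h than at 1 h, against 28.7% and 30.9% of all genes, and 28 were lower and 0 higher at 10 h, against 24.9% and 29.5%. The riser was Tk1, by 0.60 ± 0.22 from its trough at 1 h. The largest falls from 1 h to 6 h were those of Cdc6, by 1.63, Nusap1, by 1.35, and Mcm6, by 1.34. With BDNF 11 were lower and 0 higher at 6 h than at 1 h, against 17.7% and 15.8%, of which 7 were in the spindle class, and 8 were lower and 1 higher at 10 h, against 17.5% and 16.4%. These BDNF counts were 1 to 6 and 2 to 3 when any one of the samples compared was left out.

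Promoter words ran alongside these contrasts as a description only, since words and classes go together. The 6 genes with an E2F word and no CHR word (Cdt1, Mcm3, Mcm5, Mcm6, Rrm1 and Uhrf1) had a median of -0.14 with BDNF and -1.08 with KCl at 6 h. The 13 genes with a CHR word and no E2F word had -0.49 and -0.75, and the 10 genes with neither had -0.34 and -0.70. Cdk1 and Mcm7, with both words, gave -0.31 and -0.18 with BDNF and -0.27 and -0.28 with KCl.

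Upstream regulators of the G1 to S step, a list of 34 genes of which 33 were tested, were called in both directions. At 1, 6 and 10 h BDNF called 11, 6 and 4 of them higher and 3, 11 and 10 lower, and KCl called 6, 9 and 8 higher and 11, 15 and 19 lower. Of all genes BDNF called 21.3%, 22.1% and 21.1% higher and 19.0%, 21.1% and 19.5% lower, and KCl called 26.5%, 33.4% and 29.0% higher and 28.2%, 33.1% and 28.2% lower, so that several of these counts lie near the share over all genes. For BDNF their medians were 0.02, -0.14 and -0.07, and for KCl -0.12, -0.20 and -0.27. Cdkn1a, the Cdk inhibitor p21, had controls of 331, 439 and 551 and rose with BDNF, to 2907 and 2877 after 1 h, to 2184 and 2102 after 6 h and to 1191 and 1280 after 10 h. Its log2 fold changes were 2.77 ± 0.13 (adjusted p = 1.1e-11), 2.34 ± 0.13 and 1.54 ± 0.13, and with KCl 0.77 ± 0.13, 1.19 ± 0.13 and 0.79 ± 0.13. Every stimulated sample lay above every control, and the rise was larger with BDNF at each time, by 1.99 ± 0.16, 1.15 ± 0.16 and 0.75 ± 0.16.
Cdkn1b, the inhibitor p27, rose with KCl and fell with BDNF at 6 h. It had controls of 2598, 2710 and 2863, rose to 4976 and 4830 at 1 h of KCl, by 0.85 ± 0.06 (adjusted p = 3.5e-10), and by 0.65 ± 0.06 at 6 h, and fell with BDNF at 6 h, to 2148 and 2124, by 0.35 ± 0.06. Other factors on this list split as well. E2f3, an activating E2F, fell with KCl at 6 h by 0.98 ± 0.08, to 266 and 288 from controls of 491, 566 and 602, and gave 0.13 ± 0.08 with BDNF. Mybl2, which activates mitotic genes together with the MuvB core of DREAM, fell by 1.04 ± 0.11 with KCl at 6 h and gave -0.24 ± 0.11 (adjusted p = 0.11) with BDNF. Tfdp1, the dimer partner of E2Fs, rose with both at 6 h, by 0.20 ± 0.06 with BDNF and 0.59 ± 0.06 with KCl. Mycn, a driver of progenitor growth, fell at 1 h with BDNF by 0.65 ± 0.06 and with KCl by 0.60 ± 0.06, was at 0.08 ± 0.06 with BDNF by 6 h, and stayed lower with KCl, by 0.54 ± 0.06 at 6 h and 0.56 ± 0.06 at 10 h.

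A further list held 46 other replication and mitosis genes, to be read against the same shares of all genes. At 1, 6 and 10 h BDNF called 0, 1 and 0 of them higher and 1, 16 and 23 lower, with medians of -0.06, -0.28 and -0.32. KCl called 3, 2 and 0 higher and 14, 35 and 39 lower, with medians of -0.13, -0.47 and -0.59. Hmgb2, a chromatin protein of dividing cells, fell by 1.23 ± 0.12 at 10 h of KCl, to 281 and 264 from controls of 514, 631 and 788. These KCl samples lay below all controls. Lig1, the replicative DNA ligase, fell with both at 6 h, by 0.42 ± 0.10 with BDNF and 0.84 ± 0.10 with KCl. Gins3, of the helicase complex, had already fallen at 1 h of KCl, by 1.10 ± 0.13 (adjusted p = 6.9e-07), to 55.6 and 57.7 from controls of 106, 120 and 147.

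Some markers of cells that can divide also differed in these samples, and their part in the results was not tested. The shares of all genes called lower were 21.1% and 19.5% at 6 and 10 h of BDNF and 33.1% and 28.2% at 6 and 10 h of KCl. Of the 11 radial glia and progenitor markers BDNF called 0 higher and 5 lower at 6 h and 0 and 4 at 10 h, and KCl 1 and 4, and 0 and 4. Their summed level was 24418 to 29549 normalised counts in the controls, 23818 to 25048 and 24274 to 25286 with BDNF at 6 and 10 h, and 23057 to 25231 and 22888 to 24890 with KCl. Their median deviation from the control mean was -0.22 to 0.12 on the log2 scale in the controls. With BDNF at 6 and 10 h it was -0.25 to -0.13 and -0.31 to -0.27. With KCl it was -0.22 to 0.10 and -0.19 to -0.08, inside the control range. Of 6 astrocyte markers tested BDNF called 5 lower at 6 h and 3 at 10 h, and KCl 5 and 4, with Gfap at -0.74 and -1.22 at 6 h. Over the whole list of 7 their sum was 6978 to 9253 in the controls, 6262 to 6308 and 6385 to 6606 with BDNF, and 5783 to 6420 and 6102 to 6636 with KCl, and S100b was at 1.0 to 11.1 in every sample. The 5 oligodendrocyte precursor markers summed to 5689 to 6163 in the controls, 5230 to 5322 with BDNF at 6 h, and with KCl 4191 to 4656 at 1 h and 6720 to 7118 at 6 h. At 6 h of KCl the higher sum rested on Olig1, called higher by 0.57, while 3 of the 5 were called lower and their median deviation from the control mean was -0.31 to -0.11 on the log2 scale. The 12 neuronal markers summed to 52629 to 58880 in the controls and 51377 to 58764 over the stimulated groups. Their median deviation, which abundant markers do not dominate, was 0.24 to 0.34 at 6 h of KCl, above the -0.12 to 0.11 of the controls. The 6 microglial markers summed to 105 to 190 in every group. The 8 endothelial, mural and fibroblast markers summed to 3911 to 5269 in the controls and 3685 to 3701 with KCl at 10 h, where 3 of the 7 tested were lower and 1 higher. The sum of the 36 proliferation genes was 16780 to 24181 in the controls, 15505 to 16563 and 15711 to 16676 with BDNF, and 11136 to 13342 and 12219 to 12541 with KCl at 6 and 10 h.

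Few promoter peaks of the genes were called with the LOESS offsets, while other scalings, given below, called more of them lower with KCl. An ATAC peak overlapped the window from 1000 bp before to 100 bp after a start site in 35 of the 36 genes, all but Tk1, 38 peaks in all. These peaks were strong, with a median of 141 scaled counts in the controls against 28.1 over all 56383 peaks tested. BDNF called 1, 0 and 1 of the 38 at 1, 6 and 10 h, against 17.3%, 10.6% and 9.36% of all peaks, and at 6 h 0 peaks had an unadjusted p under 0.05 by edgeR, 0 by limma and 6 by DESeq2, with 0 called by each. KCl called 3, 4 and 2, against 8.34%, 7.49% and 7.87%. Of these 1, 0 and 0 were higher, against 5.29%, 5.44% and 5.91%, and 2, 4 and 2 lower, against 3.05%, 2.06% and 1.96%. Calls with BDNF were gains at Cdt1 at 1 h, by 0.35 ± 0.14, and at Ccne2 at 10 h, by 0.28 ± 0.11, and the KCl gain was at Ccne1 at 1 h, by 0.30 ± 0.11. These 3 gains were not called with TMM scaling or DESeq2 size factors. The median change of the 38 peaks was between -0.16 and 0.01 over the 6 comparisons, between -0.27 and -0.06 with TMM scaling and between -0.31 and -0.09 with DESeq2 size factors. At 10 h of BDNF it was 0.01 with the LOESS offsets, -0.06 with TMM and -0.10 with DESeq2 size factors, so its sign depended on the scaling.

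The promoter of Kif11, printed above, gave the clearest change. Its peak at chr19:37375899-37376602 had controls of 211, 242 and 273 scaled counts and KCl samples of 147 and 162 after 1 h, of 124 and 109 after 6 h and of 170 and 179 after 10 h, all below the controls. The log2 fold changes were -0.64 ± 0.12 (adjusted p = 0.00030), -1.02 ± 0.15 (adjusted p = 2.6e-07) and -0.47 ± 0.13 (adjusted p = 0.014). With BDNF they were -0.01, -0.19 and -0.20, none past the threshold. The 10 h call was lost without either KCl sample. Kif11 RNA at 1 h of KCl was at 638 and 766 against controls of 486, 613 and 708, by 0.23 ± 0.15 (adjusted p = 0.22), and the gene was called lower at 6 and 10 h with both stimuli.
A peak centred at -851 bp from the start of Mcm5 (chr8:75108612-75108824) had controls of 47.0, 52.1 and 57.9 and fell to 26.7 and 21.1 at 6 h and 33.8 and 22.8 at 10 h of KCl, by 1.05 ± 0.31 (adjusted p = 0.028) and 0.88 ± 0.29. The stronger peak at the start of Mcm5 itself (chr8:75109110-75109769) had controls of 286, 313 and 324 and KCl samples of 275 and 286 at 6 h, a log2 fold change of -0.15 ± 0.11 (adjusted p = 0.55), and -0.19 ± 0.11 (adjusted p = 0.35) at 10 h. The peak at the start of Mcm3 (chr1:20819949-20820610) fell by 0.38 ± 0.10 at 1 h and 0.45 ± 0.12 at 6 h of KCl, and that of Rrm1 (chr7:102441492-102442110) by 0.49 ± 0.15 at 6 h. Sample B of KCl at 6 h was the shallowest ATAC sample, at 1.24 M reads in peaks against 4.21 M for sample A. Without sample B of the KCl pair only 1 promoter peak was called at 1 h and 1 at 6 h, and at 10 h 1 without sample A and 0 without sample B. Mcm6 RNA, in contrast, was at its lowest at 6 h of KCl while its promoter peak was at 168 and 107 scaled counts against controls of 110, 169 and 184, a log2 fold change of -0.14 ± 0.16. The promoter peaks of Mki67 and Top2a gave -0.18 ± 0.21 and -0.06 ± 0.20 there.

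The number of promoter peaks called depended on how the ATAC samples were scaled. With TMM scaling 0 peaks were higher and 5, 10 and 13 lower with KCl at 1, 6 and 10 h, and with DESeq2 size factors 0 were higher and 5, 11 and 14 lower, where the LOESS offsets used above gave 1, 0 and 0 higher and 2, 4 and 2 lower. Of all 56383 peaks tested, TMM scaling called 2628, 2228 and 2944 lower and 3572, 4299 and 5051 higher at these times. DESeq2 size factors called 2947, 2856 and 3907 lower and 3392, 3982 and 4699 higher. The LOESS offsets called 1720, 1159 and 1107 lower and 2985, 3066 and 3333 higher. Over all peaks the lower share of the calls at 10 h of KCl was 24.9% with the LOESS offsets, 36.8% with TMM and 45.4% with DESeq2 size factors, and at 6 h 27.4%, 34.1% and 41.8%. At 1 h of KCl it was 36.6%, 42.4% and 46.5%.

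**Figure D5:**
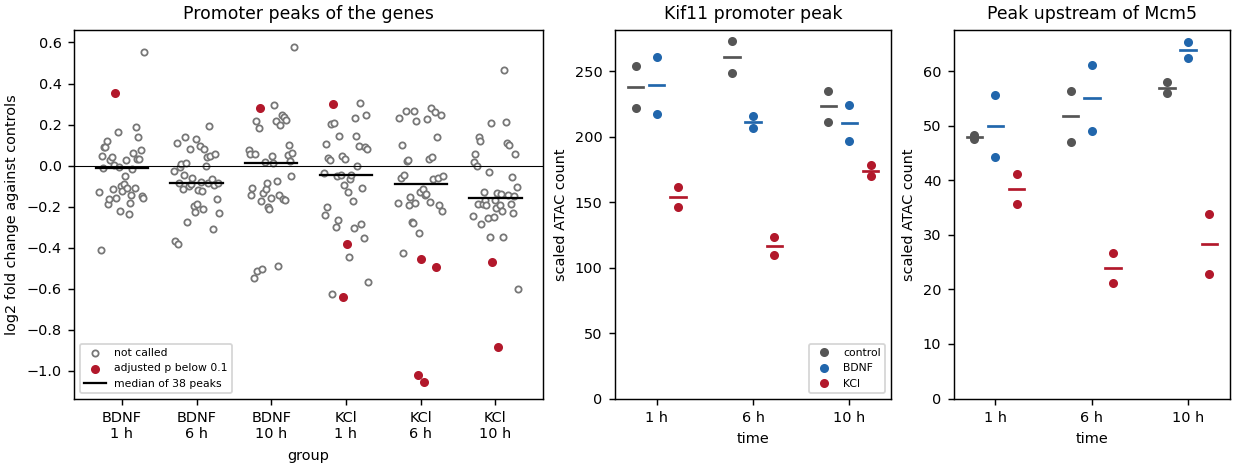
Left, log2 fold change of the 38 promoter peaks against the 6 controls in each of 6 groups, filled where the adjusted p was under 0.1, with a bar at the median. Right, scaled ATAC counts of single samples and their means at the promoter peak of Kif11 and the weak peak upstream of Mcm5, where the KCl samples at 6 h lie at 124 and 109 and at 26.7 and 21.1, under all controls.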

How the data were processed

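RNA-seq and ATAC-seq were each measured in 18 samples, 2 in each of 9 groups, and groups were taken from the sample labels. The deposited RNA signal is a normalised count per gene: the authors aligned reads with TopHat2 to mm10, counted them per gene of a GENCODE annotation and divided the counts by DESeq2 size factors. The deposited ATAC values are read counts in peaks, which the authors mapped with Bowtie2, called with MACS2 and counted with DiffBind. Tables of the authors' own differential tests were not used, except for the gene names in one of them, and 26203 of 26709 genes were named.

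Normalised counts were compared as log2(value + 1) with limma 3.58.1 (trend, robust) over 7 levels, the 6 controls pooled, on 16209 genes with a mean of 10 or more, and adjusted by Benjamini-Hochberg over all of them. A gene was called at an adjusted p below 0.1, the threshold of the study. Fold changes are on the log2(value + 1) scale, which understates low genes. Control times were compared over 9 levels. Whole reads were recovered from 100% of values within 0.01 reads and tested with edgeR 4.0.16 and DESeq2 1.42.0 as alternatives. ATAC counts of 56383 peaks with a mean of 10 or more, of 58177, were tested with edgeR's quasi-likelihood test with LOESS offsets, and scaled counts are the counts after scaling by those offsets. Depth limits precision through counting error. The study calls the samples of a group biological replicates, while the labels do not tie them to separate cultures, so that p-values measure the spread between these samples. Replicate pairs differed by more than sampling noise, with a chi-square per degree of freedom of 2.44 to 39.6 in RNA and 2.06 to 2.58 in ATAC. The RNA pair of KCl at 6 h gave the 39.6, the 1 h controls 10.4, and every other RNA pair 6.45 or less. Scripts were tested on simulated data.

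The 36 genes, their classes, the lists of regulators and markers and the tests were chosen with earlier results of these data known. Named were Mki67, Top2a, Cdk1, Ccnb1, Pcna and Mcm2, the 2 genes of each class, 6 of the regulators and 4 of the other replication genes with the smallest adjusted p over the 6 comparisons with the controls, and the 4 such promoter peaks. One gene named by this rule is not reported here. Exon lengths are unions over transcripts of GENCODE M21, later than the release the authors used. Promoters of Ccne2, Ccna2, Tpx2, Mcm4 and Aurkb were not analysed here. RNA sample letters are those of the deposited columns. ATAC columns carry no letter, so A and B there give only the order of the columns within a group. An ATAC letter is thus not tied to the same RNA letter. Columns were matched to groups only.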

Additional observations from a re-analysis of the deposited data

Results flagged for a closer look

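Among 84 sets of 6 control samples, one per gene or promoter peak described, 6 had a sample whose gap to the next was large against the whole range, where chance gives about 1 in 20 sets. Mcm7 was at 918 normalised counts in sample A of the 10 h controls. In ATAC the lowest control stood apart at the promoter peaks of Ccna2, at 326 scaled counts, of Mcm6, at 110, and of Bub1, at 59.3, and the highest at those of Cdc45, at 264, and Cdc6, at 131.

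The effect of KCl against the controls differed between 6 h and 1 h in 29 of the 36 genes and between 10 h and 1 h in 28, and the effect of BDNF in 11 and 9, each by limma's contrast between the 2 times at an adjusted p below 0.1. Of all genes 30.9% were higher and 28.7% lower at 6 h than at 1 h of KCl, and 29.5% and 24.9% at 10 h. With BDNF these shares were 15.8% and 17.7% at 6 h and 16.4% and 17.5% at 10 h. Counted over both directions, the BDNF genes were not above the share over all genes. By direction, all 11 were lower at 6 h, and at 10 h 8 were lower and 1 higher. The lower counts lay above the share of all genes called lower and the higher counts below the share called higher, which was not tested.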

How the results depend on the processing

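Counts of called genes changed most with the threshold and with single samples. At an adjusted p below 0.01 the counts against the controls were 0, 8 and 4 for BDNF at 1, 6 and 10 h and 6 for KCl at 1 h, 4 for BDNF against KCl at 1 h, and 0 for BDNF at 6 h and at 10 h against 1 h. For pseudocounts, filters, TMM scaling, edgeR, DESeq2 and controls of the same time, every other RNA count over both directions stayed within 1.5 times. The lower calls alone at 1 h of KCl went from 10 to 5 with controls of the same time. Whether the letters of the RNA samples pair them across groups is open. The deviations of same-lettered samples correlated above 0.1 in 13 of 36 pairs of groups, with a range from -0.315 to 0.418. The 1 h and 6 h controls correlated at 0.418. The most negative correlations all involved the 10 h controls, with -0.315 against the 1 h controls. A fit with the letter as a replicate block gave 15 genes for BDNF at 10 h against 1 h, where the fit without it gave 9, and changed no other count beyond 1.5 times.

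With one sample left out at a time, counts against the controls were 0 to 2, 7 to 21 and 6 to 24 for BDNF and 8 to 14, 21 to 35 and 31 to 36 for KCl at 1, 6 and 10 h. BDNF against KCl gave 5 to 6, 12 to 18 and 13 to 16. Against 1 h of the same stimulus BDNF gave 1 to 6 and 2 to 3, KCl 25 to 30 and 21 to 29 at 6 and 10 h, and the controls 0 to 0. Promoter peaks gave 0 to 1, 0 to 0 and 0 to 1 for BDNF and 1 to 3, 1 to 4 and 0 to 3 for KCl.

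Promoter peaks called with BDNF at 1 h, where the LOESS offsets gave 1 gain, were 2 losses under TMM scaling and 2 losses with DESeq2 size factors, and 0 with limma, with controls of the same time and at an adjusted p below 0.01. With BDNF at 10 h, again 1 gain with LOESS offsets, they were 2 losses with DESeq2 size factors, and 0 under TMM scaling, DESeq2's Wald test, controls of the same time and an adjusted p below 0.01. With KCl at 1 h they were 5 under TMM scaling, 5 with DESeq2 size factors, 1 with controls of the same time and 1 at an adjusted p below 0.01. With KCl at 6 h they were 10 under TMM scaling, 11 with DESeq2 size factors, 10 by DESeq2's Wald test, 2 with controls of the same time and 2 at an adjusted p below 0.01. With KCl at 10 h they were 13, 14 and 14 under the same 3 settings, 0 at an adjusted p below 0.01 and 1 in a window of 500 bp either side of the start. DESeq2's Wald test called 2374 and 3308 of all 56383 peaks lower at 6 and 10 h of KCl. The cause of these differences between settings was not tested. No named gene or peak called reversed its direction under any alternative, and of single gene values 285 lost their call and 4355 did not, and of single peak values 42 and 112. With 2 samples per group, small changes in low genes and weak peaks could not be detected.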
